A study of Mus musculus with 8 samples.

Results

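In whole liver of male and female mice, 100 of 32115 RefSeq probes (0.311%) were well above background on all 4 arrays labelled liver-specific Bcl-6 deficient and on none of the 4 wild type arrays. These probes stand for 95 genes, and they were chosen by exactly that detection pattern among probes that carry a RefSeq NM or NR accession, so their difference between the genotypes is a description and carries no test. A probe counted as present on an array where more than 0.5 of its spots were marked well above background by the scanner software, Agilent Feature Extraction. Of the 100 probes, 90 carried an NM and 10 an NR accession, and 5 genes (Tdrd9, Adcy1, Ttyh1, Stk33 and Bcl2l11) had 2 member probes. The reverse pattern, present on all 4 wild type arrays and on none labelled Bcl-6 deficient, was met by 35 RefSeq probes.

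BCL6 is a zinc finger repressor that recruits corepressor complexes to DNA and is best known for its part in germinal centre B cells. In liver it is expressed more in males and is regulated by growth hormone through STAT5, whose DNA motif resembles that of BCL6. The study was set up to ask how Bcl6 contributes to sex differences of the liver. The 4 groups were wild type males, wild type females, liver specific Bcl-6 deficient males and liver specific Bcl-6 deficient females, all of strain C57BL6 and aged 10 to 11 weeks, with 2 arrays a group (replicates 3 and 4). The Cre line, the deleted part of the gene and the alleles of the controls are not given in the sources used here.

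Each array measured 56605 probes, of which 28073 to 30624 were well above background, and the correlation between both arrays of a group ran from 0.9898 to 0.9932 across probes. All 20 hepatocyte markers of a fixed list were above background on all 8 arrays. The single Bcl6 probe was not lower in the livers labelled Bcl-6 deficient. It read 3.20 and 3.55 in male wild type, 4.31 and 4.86 in male labelled deficient, 2.02 and 4.16 in female wild type and 4.04 and 4.82 in female labelled deficient livers (log2). Labelled deficient minus wild type came to 1.21 for males (limma, adjusted p = 0.203) and 1.34 for females (adjusted p = 0.234). The female value changed with the wild type array left out: it was 2.41 (adjusted p = 0.00416) without female wild type replicate 4 and 0.26 (adjusted p = 0.777) without female wild type replicate 3. The male difference of 1.21 passed when either of these 2 arrays was left out (adjusted p = 0.0220 and 0.0244). Whether the probe lies in the deleted part was not tested, so every genotype direction below rests on the labels. Inner slide columns held the samples labelled deficient and outer columns the wild type, so slide column and genotype cannot be told apart. The labels say only that replicates are separate samples, and p-values measure the spread between these samples.

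All levels are log2 signals relative to the array's 75th percentile, where the lowest level that counted as above background lay between -4.38 and -3.84. Because the wild type levels of the members were not well above background, a fold is given as a lower bound. For this bound the mean of the 4 arrays labelled Bcl-6 deficient was set against the wild type mean, after each wild type value below the lowest signal that counted as above background on its array had been raised to that signal. The bound had a median of 2.84-fold over the 100 probes, and the lowest was 1.08-fold. It reached 2-fold for 67 probes, 4-fold for 35, 8-fold for 25 and 16-fold for 16. The measured difference of the means had a median of 2.86 (log2, labelled deficient minus wild type), and the lowest was 0.55. The lowest labelled deficient array lay above the highest wild type array for 98 of the 100 members, against 6.87% of all RefSeq probes, a share the detection pattern itself fixes to a large degree. The gap between these arrays was over 1 for 66 probes, over 2 for 46 and over 4 for 19.

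**Figure D1:**
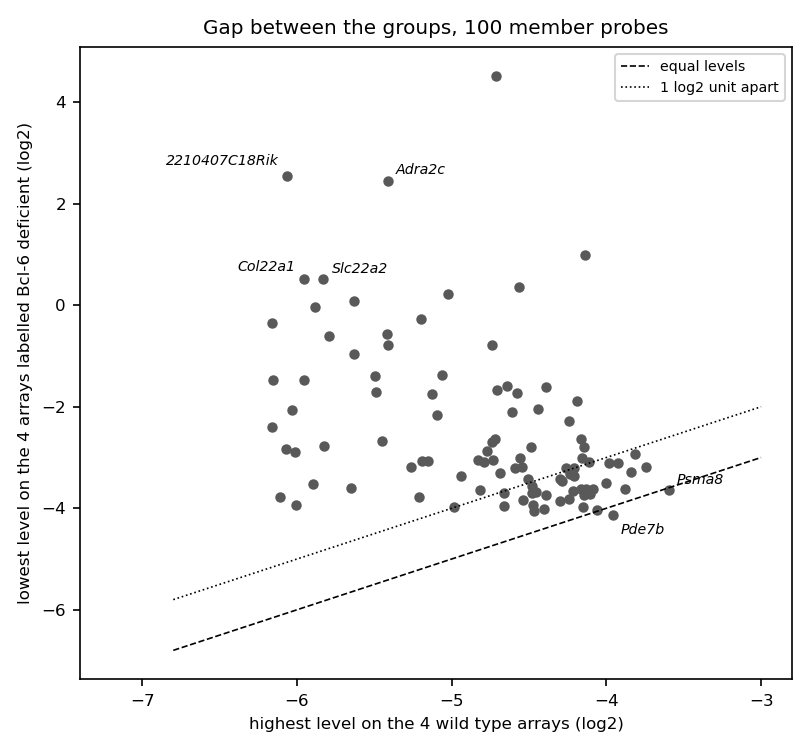
Each point is 1 of the 100 member probes, with its highest level on the 4 wild type arrays on the horizontal axis and its lowest level on the 4 arrays labelled Bcl-6 deficient on the vertical axis (log2 relative to the array's 75th percentile). 98 points lie above the dashed line of equal levels and 66 are more than 1 log2 unit above it (dotted line); Pde7b and Psma8 lie below the dashed line.

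The upstream sequences of markers and of members with a match to the BCL6 and STAT5 motifs are shown to let the promoters of genes with the same detection pattern be compared. They come from RefSeq (GRCm38.p6), run 5′ to 3′ in the direction of the gene and lie before its start. Slc22a2 lies at chr17:12584069-12584188 on the plus strand, Cap2 at chr13:46501783-46501902 on the plus strand and Sorcs3 at chr19:48205905-48206024 on the plus strand, each shown over the 120 bases just upstream of the gene.
Slc22a2: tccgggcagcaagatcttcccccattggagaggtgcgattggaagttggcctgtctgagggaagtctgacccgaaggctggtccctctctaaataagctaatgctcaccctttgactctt
Cap2: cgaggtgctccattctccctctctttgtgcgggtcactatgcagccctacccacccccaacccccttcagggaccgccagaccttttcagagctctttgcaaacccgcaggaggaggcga
Sorcs3: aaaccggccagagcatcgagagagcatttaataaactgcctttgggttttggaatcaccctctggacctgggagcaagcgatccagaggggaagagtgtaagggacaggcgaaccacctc
None of the searched motifs was in these 3 stretches. BC039966 (chr4:153950565-153950633, minus strand) and E330021D16Rik (chr6:136415736-136415804, minus strand) each held a match to the BCL6-like motif, in capitals, that begins 127 and 205 bases before the gene start.
BC039966: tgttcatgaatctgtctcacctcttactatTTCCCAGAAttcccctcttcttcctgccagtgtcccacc
E330021D16Rik: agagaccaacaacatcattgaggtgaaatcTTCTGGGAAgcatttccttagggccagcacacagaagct
A window of 300 bases around the gene start was at hand for 76 of the 95 member genes and for 27025 genes in all. The BCL6-like motif TTCCNNGAA, searched on both strands, was in 4 of the 76 member windows (5.26%) and in 5.60% of all windows. The wider STAT motif TTCNNNGAA, which holds every match of the first, was in the same 4 genes (5.26%), namely BC039966, Ccdc85a, Dzip1 and E330021D16Rik, and in 9.55% of all. The box TATAAA on the sense strand was in 7 member windows (9.21%) and in 9.77% of all. The ratio of observed to expected CpG was over 0.5 in 31 member windows (40.8%) and in 42.5% of all.

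The 4 marker genes of the pattern include a kidney transporter and a collagen of muscle junctions. Slc22a2 encodes the organic cation transporter OCT2 of the kidney proximal tubule. It read -5.96 and -5.83 in male and -6.15 and -6.30 in female wild type livers, 1.75 and 0.51 in males and 2.62 and 2.38 in females labelled Bcl-6 deficient. The groups were far apart, with a gap of 6.34, and the bound was at least 61.1-fold, or 33.8-fold in males and 111-fold in females taken alone. Among the 20 other members of the SLC22 family of organic ion transporters, 2 rose and 4 fell in males and 1 rose and 2 fell in females, of 16 tested (limma, adjusted p under 0.05). Over all 30578 probes tested, 7.00% were higher and 6.51% lower in males labelled deficient, and 4.14% were higher and 3.75% lower in females.

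Col22a1 encodes collagen XXII, a fibril-associated collagen of tissue junctions such as that between muscle and tendon. Its levels were -5.99 and -5.96 in male and -6.34 and -6.53 in female wild type, and 0.52 and 0.62 in male and 2.35 and 1.46 in female labelled deficient livers. The lowest labelled deficient array stood 6.48 above the highest wild type array, and the bound was at least 40.9-fold. A second Col22a1 probe was above background on all 4 labelled deficient arrays and also on 2 wild type arrays, with means of -3.52 and -4.47, so the gene is not silent by every probe. Of 8 other fibril-associated collagens 4 were tested and 1 rose, Col14a1 in males (0.85 ± 0.15, log2 ± SE, adjusted p = 0.00790, and 0.0632 without male labelled deficient replicate 4). Col23a1, a transmembrane collagen and also a member, ranged from -6.25 to -4.83 on wild type and from -3.04 to -1.72 on labelled deficient arrays (at least 3.79-fold). Of 31 other collagens 18 were tested, 3 rose and 1 fell in each sex. Col27a1 was the collagen that fell, by 3.26 in males (adjusted p = 0.000162) and by 1.83 in females (adjusted p = 0.00578, and 0.0553 without female labelled deficient replicate 3).

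Cap2, a cyclase-associated protein that binds actin monomers and is found mainly in heart, skeletal muscle and brain, read -6.11 and -5.63 in male and -6.11 and -6.53 in female wild type livers. In livers labelled deficient it read 0.33 and 0.24 in males and 0.60 and 0.09 in females, a narrow range 5.72 above the highest wild type array (at least 21.6-fold). Its relative Cap1, which most tissues express, differed by -0.04 in males and 0.03 in females and passed the test in neither sex (adjusted p = 0.884 and 0.950). Other members with a known place in striated muscle were Ldb3 of the Z-disc (2.86-fold at least), Tpm2, a tropomyosin (1.73-fold), and Myzap of the intercalated disc (2.27-fold). A second Ldb3 probe was above background on all 4 labelled deficient and on 2 wild type arrays. Its means were -3.77 in labelled deficient and -4.02 in wild type livers, a difference of 0.24, and the groups overlapped.

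**Figure D2:**
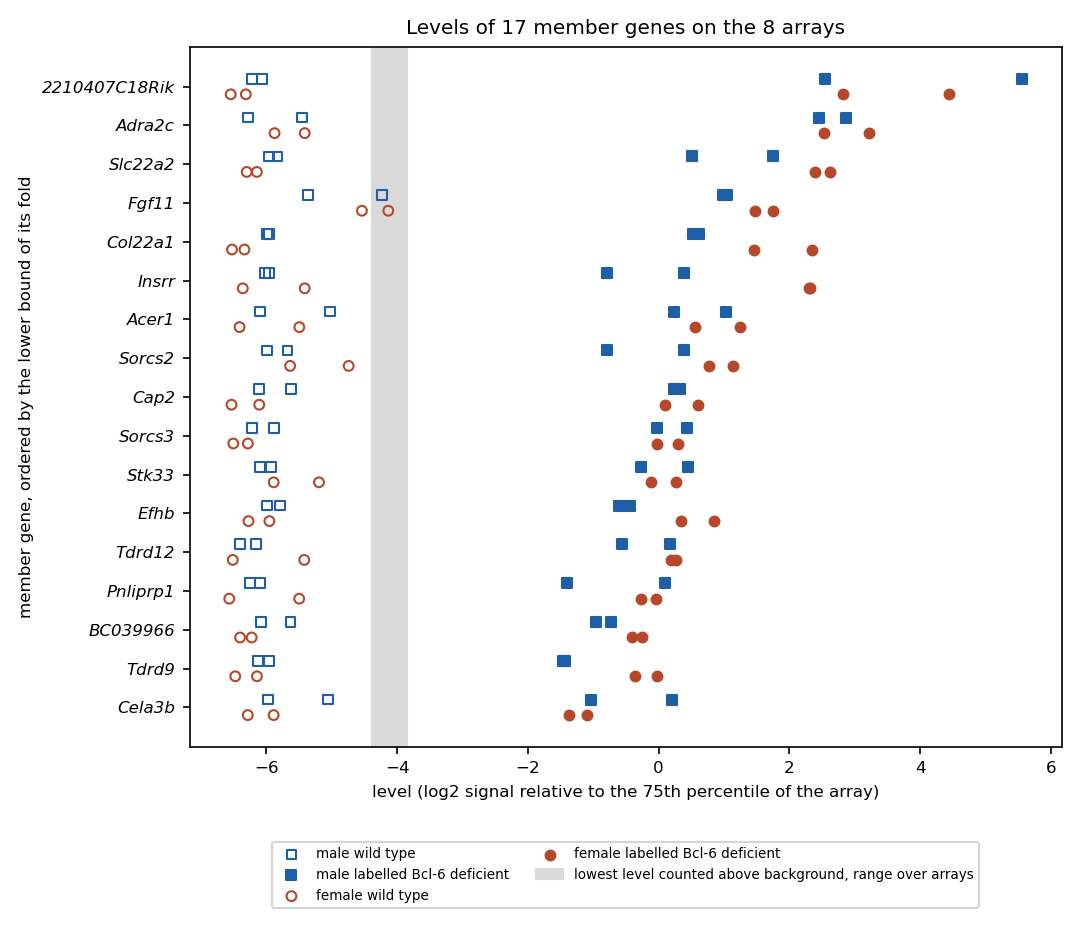
Levels (horizontal axis, log2 signal relative to the array's 75th percentile) of 17 of the 20 member genes with the largest bounds on the fold, 1 row a gene and 1 mark an array: open marks are wild type, filled marks are labelled Bcl-6 deficient, squares are males and circles females. In every row all filled marks lie to the right of all open marks; levels can be compared within a row only, since each row is another probe.

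Several of the largest bounds belonged to genes known from the nervous system. Sorcs3 is a VPS10 domain sorting receptor of neurons. It read -6.22 and -5.88 in male wild type, -6.28 and -6.51 in female wild type, 0.43 and -0.03 in male labelled deficient and -0.02 and 0.29 in female labelled deficient livers, and the bound was at least 19.5-fold with no overlap. Sorcs2, a receptor of the same family that binds neurotrophin precursors, read -5.99 and -5.68 and -5.64 and -4.74 in male and female wild type and 0.39 and -0.79 and 1.14 and 0.76 in male and female labelled deficient livers (at least 22.5-fold). A second Sorcs2 probe was above background on no array. Of the 3 other VPS10 receptors, Sorcs1 was above background on 1 array, Sorl1 did not pass the test, and Sort1 rose in females (0.58 ± 0.14, adjusted p = 0.0379, lost without any of 6 single arrays, with adjusted p up to 0.226).

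Adra2c, the alpha 2C adrenergic receptor of brain and sympathetic nerve endings, read -6.28 and -5.46 in male wild type and -5.41 and -5.88 in female wild type livers. It was at 2.46 and 2.86 in males and 2.53 and 3.22 in females labelled deficient, which gave at least 118-fold and a gap of 7.87. Of the 7 adrenergic receptors that are no members 5 were tested. Adrb3 fell by 4.90 in males (adjusted p = 8.29e-06) and by 3.35 in females (adjusted p = 0.000104), and Adra2b rose in females (0.90 ± 0.20, adjusted p = 0.0287, and up to 0.183 without 1 array). Adra1b, the main alpha 1 receptor of liver, differed by 0.10 ± 0.12 and -0.21 ± 0.12.

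Fgf11, an intracellular growth factor homologue of nerve cells, read -4.24 and -5.36 and -4.14 and -4.54 in male and female wild type and 1.05 and 0.99 and 1.75 and 1.47 in male and female labelled deficient livers (at least 42.7-fold). Another Fgf11 probe was above background on all 8 arrays, with means of -2.47 in wild type and 2.45 in labelled deficient livers, so by that probe the gene was on in wild type and 4.92 higher in the livers labelled deficient. Fgf13 of the same subfamily was at the weak end of the members (at least 1.26-fold). Of 20 other fibroblast growth factors, 4 were tested and 1 fell, Fgf1 in males (-0.71 ± 0.16, adjusted p = 0.0235, and up to 0.130 without 1 array). Further nerve and brain genes, named after their values were seen, were Adcy1, the calmodulin-stimulated adenylyl cyclase (at least 6.91-fold by the larger of its bounds), Dpf1, a subunit of the neuronal chromatin remodelling complex (8.08-fold), Ttyh1, a membrane protein of neural cells (9.56-fold), and the protocadherin Pcdh19 (4.74-fold).

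Receptors made another group. Insrr is the insulin receptor-related receptor, an alkali sensor of kidney tubule cells. It read -6.03 and -5.96 in male and -5.41 and -6.36 in female wild type and 0.38 and -0.79 in male and 2.31 and 2.30 in female labelled deficient livers. By this member probe all labelled deficient arrays were above all wild type arrays, and among the labelled deficient arrays both males lay below both females. The bound was at least 35.9-fold over all arrays, or 13.4-fold in males and 96.5-fold in females taken alone. With 1 array left out it ran from 26.8-fold to 55.0-fold, the latter without male labelled deficient replicate 4. Insrr was the only member whose bound moved by more than 1.5 times when 1 array was left out. Insr and Igf1r, the other receptors of the family, passed the test in neither sex, with differences of -0.22 and 0.39 in males and -0.14 and 0.35 in females (limma). Other receptor members were Ffar4, the long-chain fatty acid receptor (3.91-fold), Mas1, the receptor of angiotensin 1-7 (3.70-fold), Pgr, the progesterone receptor (4.05-fold), and Il22ra1, the interleukin 22 receptor (1.57-fold). Second probes of Mas1 and Il22ra1 were above background on all 4 labelled deficient and on 3 wild type arrays. Their means in labelled deficient and wild type livers were 0.00 and -2.88 for Mas1 and -2.16 and -3.52 for Il22ra1, where the groups overlapped. A second Pgr probe was above background on no array.

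Enzymes of the exocrine pancreas and the skin were among the members. Pnliprp1, a pancreatic lipase relative, read -6.25 and -6.10 and -5.50 and -6.57 in male and female wild type and 0.10 and -1.40 and -0.27 and -0.04 in male and female labelled deficient livers (at least 13.1-fold). Cela3b, a pancreatic elastase, read -5.06 and -5.97 and -6.29 and -5.89 in wild type and 0.20 and -1.04 and -1.38 and -1.09 in labelled deficient males and females (at least 9.79-fold). Its neighbour Cela3a, a near-identical copy that may share probe signal, had a bound of 9.40-fold, and what each copy contributes is uncertain. Acer1, the alkaline ceramidase of the epidermis, read -5.02 and -6.09 and -6.41 and -5.50 in wild type and 1.03 and 0.23 and 1.25 and 0.55 in labelled deficient males and females (at least 29.5-fold). In each of these genes no wild type array reached the lowest labelled deficient array.

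Male germ cell genes also appeared. Tdrd9 and Tdrd12 are Tudor domain proteins of the pathway that makes piRNAs in testis. Tdrd9 read -6.13 and -5.96 and -6.14 and -6.48 in wild type and -1.43 and -1.46 and -0.02 and -0.36 in labelled deficient males and females (at least 9.83-fold), and its second member probe gave at least 4.63-fold. Tdrd12 read -6.40 and -6.16 and -6.51 and -5.42 in wild type and 0.18 and -0.56 and 0.27 and 0.19 in labelled deficient males and females (at least 17.6-fold). Both genes had no overlap between the genotypes. Stk33, a kinase abundant in testis, read -6.10 and -5.92 and -5.20 and -5.89 in wild type and -0.28 and 0.45 and 0.26 and -0.11 in labelled deficient males and females (at least 18.4-fold, and 2.82-fold by its second member probe). Efhb, an EF-hand protein of sperm and cilia, read -5.996 and -5.80 and -5.95 and -6.27 in wild type and -0.44 and -0.61 and 0.85 and 0.33 in labelled deficient males and females (at least 17.8-fold). The ciliary genes Rsph1 (3.39-fold), Bbs7 (2.08-fold) and Hydin (1.59-fold) and the spermatoproteasome subunit Psma8 (1.39-fold) lay lower. Second probes of Bbs7 and Psma8 were above background on all 4 arrays of each genotype. Their means in wild type and labelled deficient livers were -0.87 and 0.33 for Bbs7 and -1.17 and -0.59 for Psma8, where the groups overlapped. A second Hydin probe was above background on 1 wild type array and on no labelled deficient array.

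Of the remaining genes among the 20 largest bounds, 2210407C18Rik read -6.22 and -6.06 and -6.31 and -6.55 in wild type and 2.55 and 5.56 and 4.44 and 2.83 in labelled deficient males and females. Its labelled deficient arrays spread widely within each sex, and the bound was at least 249-fold (167-fold without male labelled deficient replicate 4). The noncoding RNA BC039966 read -6.08 and -5.63 and -6.23 and -6.40 in wild type and -0.97 and -0.74 and -0.40 and -0.26 in labelled deficient males and females (at least 11.51-fold). Transcription factors were Snai3 of the Snail family (6.52-fold), Crx of photoreceptors (1.67-fold), Aff3 (3.44-fold) and the epithelial factor Elf3 (1.73-fold), the last 2 and Snai3 named after their values were seen, as were the muscle, receptor and ciliary genes that the naming rule does not give.

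The word "only" in the detection pattern did not hold for every gene. Of the 95 genes, 49 had 72 further probes on the array, and 34 of the 49 had a further probe above background on at least 1 wild type array, 21 of them on all 4. For 9 genes the further probes were above background in labelled deficient livers only, for 6 on no array, and 46 genes had no further probe. On the 24 further probes that were above background on all 8 arrays, 18 had all labelled deficient arrays above all wild type arrays. Of all RefSeq probes 6.87% had this order, a set not limited to probes above background on all 8 arrays. The share within such probes was not computed. The difference of the 24 had a median of 1.22 (from -0.05 to 4.92). These further probes were not used by the rule, but they share the RNA of the same arrays.

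The further probes split the members into genes that were measured in wild type liver at a lower level and genes that were not. Marveld3, a tight junction protein, read -3.38 in wild type and 1.08 in labelled deficient livers by a further probe (means of 4). By further probes Kif12, a kinesin, read -2.00 and 1.19, Tpm2 0.51 and 3.24, and Bcl2l11, the apoptosis activator Bim, -0.17 and 2.18. Another Marveld3 probe, above background on 3 wild type arrays, read -3.75 and 0.80, and another Bcl2l11 probe read -1.93 and -0.66. By contrast the other probe of Crx read 1.29 and 1.35 and that of Ttc39aos1 0.53 and 0.48, so no difference of the size of their member probes appeared there. Sun1 of the nuclear envelope (2.09 and 3.12) and Gsn, the actin-severing gelsolin (2.55 and 3.31), were plainly present in wild type liver. Among the 20 genes with the largest bounds 6 had a further probe, which was above background on any wild type array for 3, Col22a1 and Fgf11 among them, and on all 4 for Fgf11 alone. Among the other 75 genes 43 had a further probe, above background on any wild type array for 31 and on all 4 for 20.

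**Figure D3:**
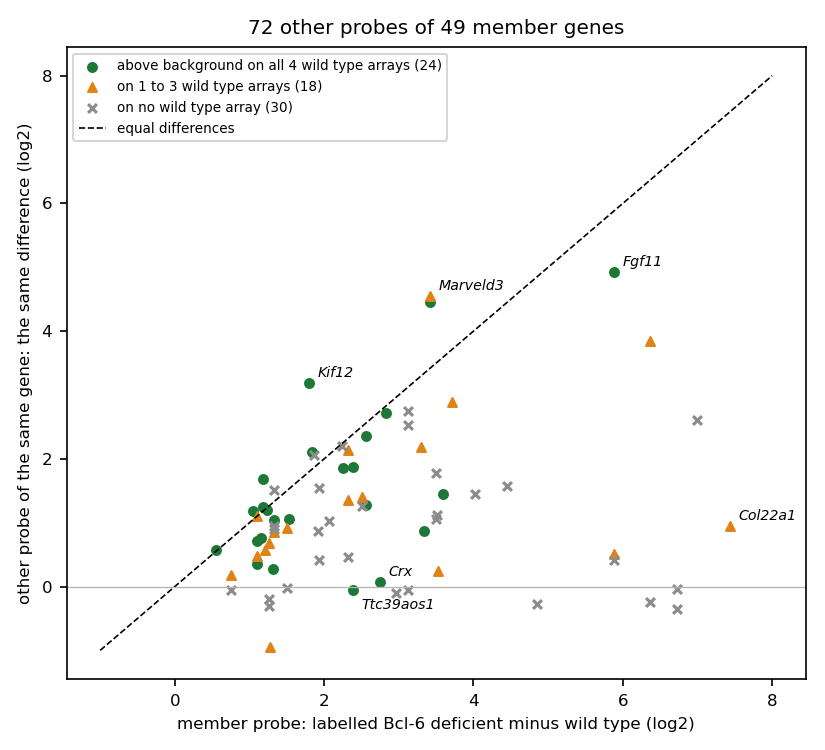
Each mark is 1 of 72 further probes of 49 member genes. The horizontal axis gives the difference (log2, labelled Bcl-6 deficient minus wild type, means of 4 arrays) of the gene's member probe with the largest bound and the vertical axis that of the further probe. Of the 72, 24 (circles) were above background on all 4 wild type arrays; Fgf11, Marveld3 and Kif12 were well above 0 by their further probes, while Crx and Ttc39aos1 lay at 0.

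A milder mark of the scanner software, positive and significant against the local background, was set for 38411 to 41989 probes an array against 28073 to 30624 for the stricter mark used here. By it all 100 members were present on all 4 labelled deficient arrays, 90 also on at least 1 wild type array and 37 on all 4. It was set on no wild type array for 10 probes, among them those of 2210407C18Rik, Slc22a2, Sorcs3, Ldb3 and Tnfsf15 and both probes each of Tdrd9 and Adcy1. A wild type value of a member is therefore a low signal rather than a measured absence for most probes.

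At the edge of the rule the groups met. Just inside lay Pde7b, a phosphodiesterase (highest wild type -3.96, lowest labelled deficient -4.13), Psma8 (-3.60 and -3.64) and Rgs7, a regulator of G protein signalling (-4.06 and -4.04). Just outside, present on all 4 labelled deficient and on 1 wild type array, lay the serine protease Tmprss4 (highest wild type -3.65, lowest labelled deficient 0.57), the muscle cadherin Cdh15 (-3.85 and -0.99) and the lipid droplet enzyme Pnpla3 (-3.55 and -0.78). These 3 were picked for the widest gaps among the probes that missed the rule by 1 array, and the 3 inside for the narrowest. Their gaps therefore do not describe either side of the rule in general. In all 170 named RefSeq probes missed the rule by 1 array, 104 with 1 wild type array too many and 66 with 1 labelled deficient array too few.

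The sex of the mouse was not used by the rule, and no member differed between the sexes past the threshold. In livers labelled deficient 0 of 100 members passed (limma, adjusted p under 0.05), against 0.0196% of tested probes higher and 0.0360% lower in females. At an unadjusted p under 0.05 there were 15 members, 14 of them higher in females, where 4.19% of the 28002 tested probes present on all 4 labelled deficient arrays were below it. Of the 100 members 64 were higher in females, against 45.6% of those probes, and their median difference (female minus male) was 0.16 against -0.02. Members with 2 probes, neighbours and shared arrays make these counts not independent.

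Insrr had the largest sex difference of the named genes, 2.51 ± 0.41 (log2, female minus male ± SE, adjusted p = 0.174). Its second probe, which was present on 3 labelled deficient arrays, read -3.22 and -4.55 in males and -1.50 and -1.54 in females. In wild type livers that probe read -4.54 and -5.19 in males and -5.90 and -5.61 in females. Male labelled deficient replicate 4 thus lay just below male wild type replicate 3. The difference was 1.37 ± 0.35 for Slc22a2 (adjusted p = 0.605), Col22a1 1.34 ± 0.29 (adjusted p = 0.426), Tdrd9 1.25 ± 0.28 (adjusted p = 0.434) and Efhb 1.12 ± 0.27 (adjusted p = 0.530). Cap2 and Sorcs3 differed by 0.06 ± 0.29 and -0.06 ± 0.27. With normexp background correction and quantile normalization 4 member probes passed, Insrr (2.03, adjusted p = 0.0116), both probes of Tdrd9 (0.75 and 0.58, adjusted p = 0.0191 and 0.0227) and Aff3 (0.60, adjusted p = 0.0191), each higher in females.

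**Figure D4:**
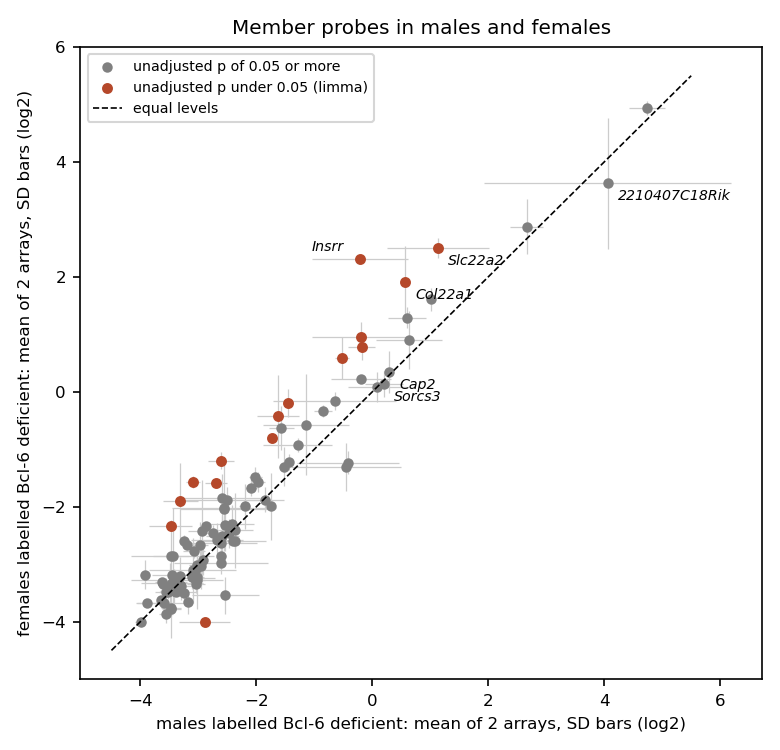
Mean levels of the 100 member probes in males (horizontal axis) and females (vertical axis) labelled Bcl-6 deficient (log2 relative to the array's 75th percentile), with bars of 1 SD over 2 arrays. Most probes follow the dashed line of equal levels; of the 15 at an unadjusted limma p under 0.05 (dark red) 14 lie above it, Insrr farthest.

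In the interaction, the genotype difference in females minus that in males, 0 of 100 members passed (limma), against 0.177% of tested probes higher and 0.487% lower, and 21 were at an unadjusted p under 0.05 (3379 of 30578 over all). The lowest adjusted p was 0.112, for Col22a1 (1.79), followed by Insrr (2.41, adjusted p = 0.128) and Tdrd9 (1.52, adjusted p = 0.169). The wild type terms of this difference are levels not well above background. Normexp with quantile normalization called the same 4 probes as for sex, with adjusted p between 0.0225 and 0.0239, and without male labelled deficient replicate 3 Slc22a2 passed (2.32, adjusted p = 0.0418).

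Of 198 genes typical of 14 tissues that are no members, 83 were tested and 96 were above background on no array. Of the 83, 23 rose and 11 fell in males and 20 rose and 7 fell in females, and of these 10 and 9 that rose were kallikreins and growth factors of the salivary gland list. Outside that list 13 of 72 rose and 11 fell in males, and 11 rose and 7 fell in females. Of all tested probes 7.00% were higher and 6.51% lower in males, and 4.14% were higher and 3.75% lower in females. The lists were chosen with earlier results of these data known, so their counts are no independent support.

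For kidney, 4 of the 19 genes other than Slc22a2 were tested and none passed (limma; 0 in males and 0 in females at an unadjusted p under 0.05), and 12 were above background on no array, among them uromodulin (Umod), Slc12a1, Nphs1 and Lrp2. The summed signal of these 19 genes ranged from 1.39 to 1.92 in wild type and from 1.47 to 1.70 in labelled deficient livers (in units of the array's 75th percentile). For brain, 9 of 19 genes were tested, and 2 rose in males and 1 in females. Mbp rose by 0.93 in males (adjusted p = 0.0356, up to 0.198 without 1 array) and Syt1 by 0.996 in females (adjusted p = 0.0388, up to 0.212 without 1 array), while Gad1, Grin1, Camk2a and Gfap were on no array. The summed brain signal was 6.32 to 9.67 in wild type and 10.7 to 13.1 in labelled deficient livers, and its part in the members' levels was not tested.

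For skeletal muscle, 7 of the 18 genes other than Cap2 and Col22a1 were tested and 1 rose, the giant filament protein nebulin (Neb), by 1.99 ± 0.21 in males (adjusted p = 0.000466) and by 1.40 ± 0.21 in females (adjusted p = 0.00454). Acta1, Myh1, Ckm and Myod1 were on no array, and the summed signal was 1.99 to 2.61 in wild type and 3.74 to 4.002 in labelled deficient livers. Neb is part of this sum and read -0.92 to 0.08 in wild type and 1.03 to 1.21 in labelled deficient livers (log2). The sum without Neb was not computed, so it does not show a rise across the list. For pancreas, 5 of 15 genes other than Cela3b were tested. The amylase Amy2a5 rose (1.32, adjusted p = 0.00133 in males; 0.80, adjusted p = 0.0242 in females, up to 0.170 without 1 array) and the elastase Cela1 fell in males (-1.51 ± 0.26, adjusted p = 0.00546). Cpa1, Cpb1, Prss2, Pnlip, Ins2 and Gcg were on no array, and the summed signal was 32.7 to 62.4 in wild type and 28.5 to 37.2 in labelled deficient livers. For testis 0 of 4 tested genes passed in either sex (limma; 1 in males and 0 in females at an unadjusted p under 0.05), and Prm1, Ddx4, Dazl and Sycp1 were on no array.

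**Figure D5:**
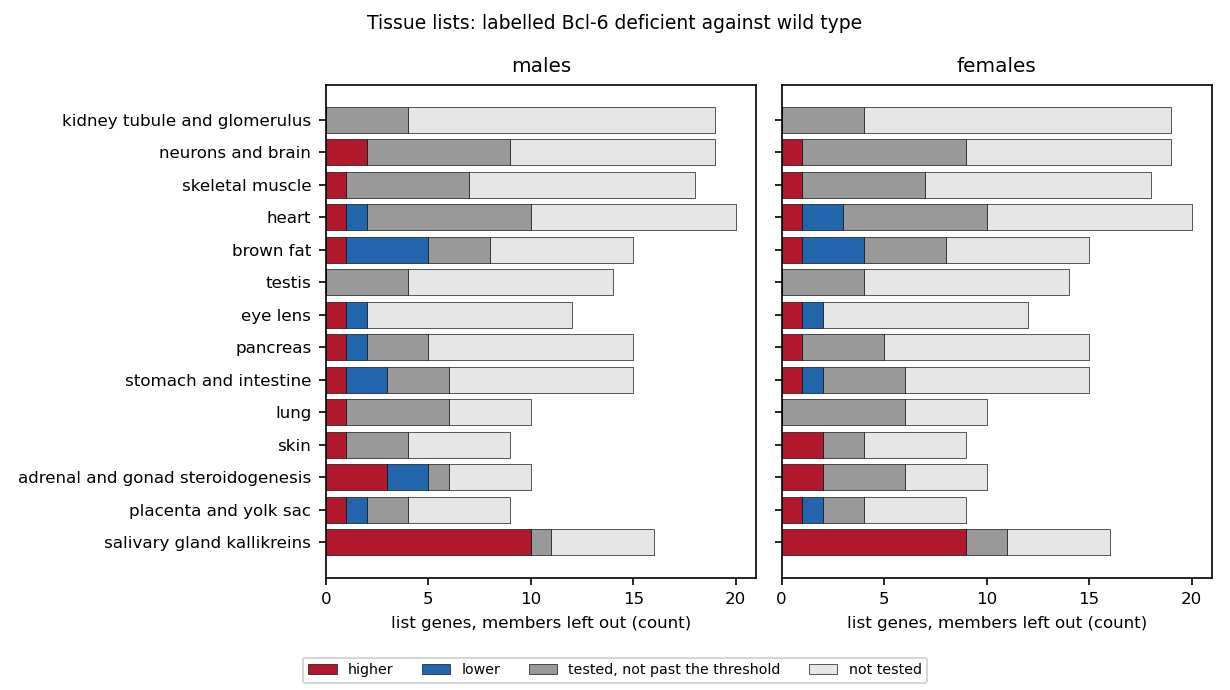
For each of 14 tissue lists the bars count the genes that are no members: higher (red) or lower (blue) in livers labelled Bcl-6 deficient at a limma adjusted p under 0.05, tested without passing (grey) and not tested (light grey), in males (left) and females (right). Kidney and testis have no call in either sex, and the salivary gland kallikreins have 10 higher in males and 9 in females.

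The salivary gland list, mostly kallikrein proteases, had a median difference of 4.43 in males and 4.56 in females (log2, 11 genes tested), against medians of -0.06 and -0.02 over all tested probes. These near-identical copies may share probe signal, so single copies are uncertain. Of the 16 genes 11 were above background on all 4 wild type arrays, which the members by choice were not. Of the 12 genes of the eye lens list 2 were tested, and they moved in opposite directions. The crystallin Crybb3, present on all 4 wild type arrays, rose by 4.94 ± 0.50 in males (adjusted p = 0.000329) and by 5.74 ± 0.50 in females (adjusted p = 0.000199). The crystallin Cryaa, also present on all 4 wild type arrays, fell by 4.01 in males (adjusted p = 1.44e-05) and by 1.64 in females (adjusted p = 0.00322).

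Markers of liver cells other than hepatocytes were counted in the same way. Of 95 such genes on 9 lists, 80 were tested, 12 rose and 2 fell in males and 4 rose and 1 fell in females. For these counts and those below, 7.00% of all tested probes were higher and 6.51% lower in males. In females the shares were 4.14% and 3.75%. The summed endothelial signal was 90.5 to 129 in wild type and 137 to 168 in labelled deficient livers (4 genes rose in males and 2 in females). That of stellate cells and fibroblasts was 123 to 134 and 149 to 164, with 0 of 14 tested genes called in either sex. The sums of the remaining lists overlapped between the genotypes, such as Kupffer cells and macrophages (159 to 253 and 180 to 270) and T and natural killer cells (7.07 to 12.3 and 6.84 to 11.7). In whole liver more cells of a type and more RNA per cell cannot be told apart, and the part of these lists in the members' levels was not tested. Of 18 genes described as BCL6 targets in lymphocytes, none is a member, 15 were tested, 2 rose in males (Bcl2l1, 0.998, adjusted p = 0.00176; Fcer2a, 1.49, adjusted p = 0.00964, and 0.0577 without male labelled deficient replicate 3) and 3 in females, led by the cytokine signalling inhibitor Socs2 (2.74 ± 0.39, adjusted p = 0.00324).

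Some members also share places in the genome. Snai3 and Gm20735 on chromosome 8 are neighbours that do not overlap, as are Cela3a and Cela3b on chromosome 4. Ttc39a overlaps Ttc39aos1 on chromosome 4, so the array cannot tell the transcripts of that pair apart where probes overlap. Chromosome 4 held 13 of the 95 genes (13.7%) against 5.92% of RefSeq genes on the array, and chromosome 7 held 10 (10.5% against 8.87%). Chromosome 17 held 8 (8.42% against 4.96%) and the X chromosome 7 (7.37% against 3.91%). These are counts with no test.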

How the data were processed

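Trizol-extracted total RNA of whole liver (0.1 ug a sample, Cy3) was hybridised to 8 one-colour Agilent arrays of 1 slide, per the labels' protocols and the file headers. The scanner files hold background-subtracted spot signals, a fluorescence intensity computed by Agilent Feature Extraction (version 11.5.1.1 in the file headers and 9.1.3.1 per the submitters' processing notes). Values in the table deposited by the authors are on the log2 scale. Set against the spot signals, they are the log2 signal less the 75th percentile of its array, and genes were not centred. Levels come from that table and detection marks from the scanner files. No spot was saturated, and the column medians of the table lay between -3.71 and -3.53. The number of arrays limits the precision.

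The 30578 probes that both arrays of 1 or more groups measured above background were fitted together with limma 3.58.1 in R 4.3.3, with 4 group means and a variance trend (4 residual degrees of freedom, tested on simulated data for the sex contrast). Benjamini-Hochberg adjustment ran within each of 4 contrasts (genotype in males, genotype in females, sex in livers labelled deficient, interaction), with a threshold of 0.05. A gene in a list is its brightest tested probe. Probes were named by RefSeq accession in a table of GRCm38.p6, and since the array was designed on mm9 no gene positions are given from it. The text names the 4 markers, the 20 member genes with the largest bounds, 3 probes on each side of the rule, list members, genes with a further probe present in wild type and the largest changes of a list. Others are said to be named after their values were seen, and some genes the rule gives are not reported here. The members and lists were chosen with earlier results of these data known. Alternatives changed the detection mark, scaling, background correction, filter, variance model, probe choice and arrays, or added the replicate number as a block. Figures used matplotlib 3.10.9 in Python 3.11.15.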

Additional observations from a re-analysis of the deposited data

How the results depend on the processing

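The number of members depends on the detection mark. The milder mark gave 49 probes, 10 of them among the 100. A gap of at least 1 left 66, and all non-control probes with the pattern came to 164. Leaving out 1 array gave 103 to 170 (170 without female wild type replicate 4). All 100 were kept each time, which the rule fixes in advance, since a member also meets it on any subset of the arrays. Outlier spots changed nothing in the count. Over all probes, the calls ranged with 1 array left out from 2185 to 4290 for genotype in males (4131 with all arrays), from 1108 to 2245 in females (2412), from 9 to 41 for sex in livers labelled deficient (17) and from 89 to 224 for the interaction (203). The sex difference gave 9 calls without a filter, 11 without a variance trend and 10 with only the 2 groups compared, and the interaction 94 without a filter and 101 without a trend. Normexp with quantile normalization moved the share of calls higher in females from 35.3% to 52.0% for sex and from 26.6% to 43.9% for the interaction. The replicate number as a block, which the labels do not tie to a litter or day, gave 4762, 2738, 15 and 291 calls and 0 members called for sex or interaction. Deviations of same-numbered arrays correlated at 0.0085 to 0.326 between groups. Of the other recomputed values 1005 stayed the same, 45 moved, 2 passed the threshold newly and 0 reversed. They comprise differences of named members and the counts of members past the threshold for sex and interaction. Many of the 1005 could not change. A genotype difference within a sex stays as it is without an array of the other sex, or with another filter or variance model. The cause of the shifts between settings was not tested.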
